A study of Drosophila melanogaster with 27 samples.

Results

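Peptidoglycan recognition proteins (PGRPs) are the molecules with which flies sense and degrade bacterial cell wall. The 5 genes examined here were PGRP-LB, PGRP-SC2, PGRP-SB1, PGRP-LC and PGRP-SA, taken wherever a probe set of the array carried that gene as its only symbol in the annotation. PGRP-LB, PGRP-SC2 and PGRP-SB1 each had 1 such probe set, which gave 3 probe sets of the 18769 that were not controls. PGRP-LC, the transmembrane receptor of the Imd pathway, and PGRP-SA, a circulating recognition protein of the Toll pathway, had none under their own symbol and were not analysed here. Of 8 further PGRP genes, PGRP-LA, PGRP-LE, PGRP-LF and PGRP-SB2 had a probe set of their own and are given beside them.

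The data came from heads of adult Drosophila melanogaster kept in 12 h of light and 12 h of dark. RNA was measured on 27 Affymetrix arrays, either from AGO1 immunoprecipitates (IP) or from the head extract they were made from (INPUT). AGO1 is the Argonaute protein that carries microRNAs in flies, so IP minus INPUT asks which mRNAs are over-represented with it. Tim-Dcr flies, whose label is not spelled out in the sources used here, were collected at Zeitgeber time 3 and 15 (ZT, hours after lights on), with 1 array per fraction and time, 4 in all. Wild-type flies were collected at ZT3, 7, 11, 15, 19 and 23, with 12 IP and 11 INPUT arrays. Each fraction and time had 2 biological replicates, except INPUT at ZT3 with 1. No strain, age or sex was given for either group, and precipitates with a control serum were not analysed here.

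The Imd pathway responds to peptidoglycan of the type found in most Gram-negative bacteria and switches on antimicrobial peptide genes through the NF-kappaB factor Relish. PGRP-LB, PGRP-SC2 and PGRP-SB1 are enzymes of the amidase class, which cut peptidoglycan. PGRP-LB and PGRP-SC2 lower the amount that reaches the receptors and are known as brakes on Imd signalling, and PGRP-SB1 is a secreted amidase that can act on bacteria directly. Among the other measured genes, PGRP-LE is a sensor that feeds the Imd pathway, PGRP-LF is a membrane protein that restrains the receptor PGRP-LC, PGRP-LA is a family member linked to Imd regulation in barrier tissues, and PGRP-SB2 is a short member close to PGRP-SB1.

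Levels are given as deposited, on a log2 scale that ran from 1.77 to 14.61 over the table. Array medians lay at 4.77 to 4.90 in wild-type IP and 6.11 to 6.19 in wild-type INPUT, so IP minus INPUT on the deposited scale carried a general offset, with a median of -1.31 over all probe sets tested. For that comparison each array was therefore centred on its own median, which brought the median of all probe sets to 0.01. Head markers were present in wild-type INPUT, with Arr2 and Arr1, the arrestins of photoreceptors, at mean deposited log2 levels of 14.36 and 13.22. The midgut markers alphaTry and Jon65Aiv were present too, at 12.10 and 11.55. In such bulk samples, fewer cells of a type and less RNA per cell cannot be told apart. Precision is limited by the small number of arrays per time.

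PGRP-LB was over-represented with AGO1 in wild-type heads, whereas the other amidases PGRP-SC2 and PGRP-SB1 did not pass the test. The centred log2 level of PGRP-LB was 3.04 at the lowest, 3.59 at the median and 4.48 at the highest among 12 IP arrays. Among 11 INPUT arrays it was 1.13, 1.38 and 2.08. On this centred scale every IP array was thus above every INPUT array. How many of all probe sets split in this way was not counted, while 18.4% split in this direction within each of the 6 times. The mean over the 6 times of IP minus INPUT was 2.18 on the log2 scale (SE 0.09, 95% interval 1.99 to 2.37), a 4.53-fold higher representation (limma, adjusted p = 2.57e-12). Among 15517 probe sets tested, 147 had a larger value.

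PGRP-SC2 and PGRP-SB1 lay near the middle of all probe sets. PGRP-SC2 had centred log2 levels of 0.60, 0.86 and 1.30 (lowest, median and highest) in IP and of 0.20, 0.86 and 1.08 in INPUT, and the fractions overlapped over most of their range. Its IP minus INPUT was 0.17 (SE 0.09, 95% interval -0.03 to 0.37, adjusted p = 0.126), and 0.23 (adjusted p = 0.0334) without the ZT7 INPUT replicate 2. PGRP-SB1 had centred log2 levels of 2.51, 2.83 and 3.38 in IP and of 2.45, 2.79 and 3.63 in INPUT, with the whole IP range inside that of INPUT. Its IP minus INPUT was -0.03 (SE 0.10, 95% interval -0.24 to 0.18, adjusted p = 0.806). The intervals reach 0.37 and 0.18, so a small over-representation was not detectable with these arrays, while one of the size seen for PGRP-LB lies outside both. Of the 3 measured genes, 1 was thus called higher and 0 lower, where 29.7% of all probe sets were called higher and 29.6% lower. All 3, and the 4 other PGRP genes, had passed the filter on low values, PGRP-SB2 through its INPUT arrays alone.

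The call for PGRP-LB did not need the centring, though its deposited levels overlapped between fractions, from 7.94 in IP and up to 8.20 in INPUT. On the deposited scale its IP levels were above its INPUT levels by 0.86 (SE 0.08, adjusted p = 1.1e-08), where 3.63% of all probe sets were called higher and 93.1% lower. PGRP-SC2 and PGRP-SB1 were lower in IP on that scale, at -1.14 (adjusted p = 4.43e-09) and -1.35 (adjusted p = 4.62e-10), values close to the median of -1.31 of all probe sets.

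Of the other PGRP genes, 3 were called higher with AGO1. PGRP-LA had a centred IP minus INPUT of 2.04 (SE 0.10, adjusted p = 3.22e-11), PGRP-LF of 1.84 (SE 0.11, adjusted p = 1.89e-10) and PGRP-LE of 1.29 (SE 0.06, adjusted p = 5.65e-12). These are 4.11-fold, 3.58-fold and 2.45-fold higher representations in IP. A call together with a difference of at least 2-fold was made for 8.15% of all probe sets. PGRP-SB2 had deposited log2 levels of 2.72 to 3.08 in IP, all below the filter of 4, and of 3.94 to 4.36 in INPUT, so nothing is read from its IP minus INPUT. On the deposited scale PGRP-LA and PGRP-LF were still higher in IP, by 0.72 and 0.52 (adjusted p = 3.99e-06 and 0.000173), whereas PGRP-LE was at -0.02 (adjusted p = 0.647). Among the measured PGRP genes, those called higher with AGO1 carry an L, for long, and PGRP-SC2 and PGRP-SB1 carry an S, for short. This grouping was noticed after the values were seen and was not tested. It leaves out PGRP-LC, PGRP-LD, PGRP-SA, PGRP-SC1a, PGRP-SC1b and PGRP-SD, which had no probe set of their own.

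The levels behind these values differed between genes. PGRP-LA had deposited log2 levels of 9.17, 9.54 and 10.07 (lowest, median and highest) in IP and of 8.56, 8.88 and 9.20 in INPUT, so the fractions overlapped only at their ends. PGRP-LE had 8.15, 8.25 and 8.35 in IP and 8.15, 8.27 and 8.53 in INPUT, with the smallest spread of the 7 genes, an SD of 0.08 in IP and 0.13 in INPUT. PGRP-LF had 6.15, 6.68 and 6.99 in IP and 5.63, 6.22 and 6.66 in INPUT. No level is compared between genes here, since each comes from other probes.

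**Figure D1:**
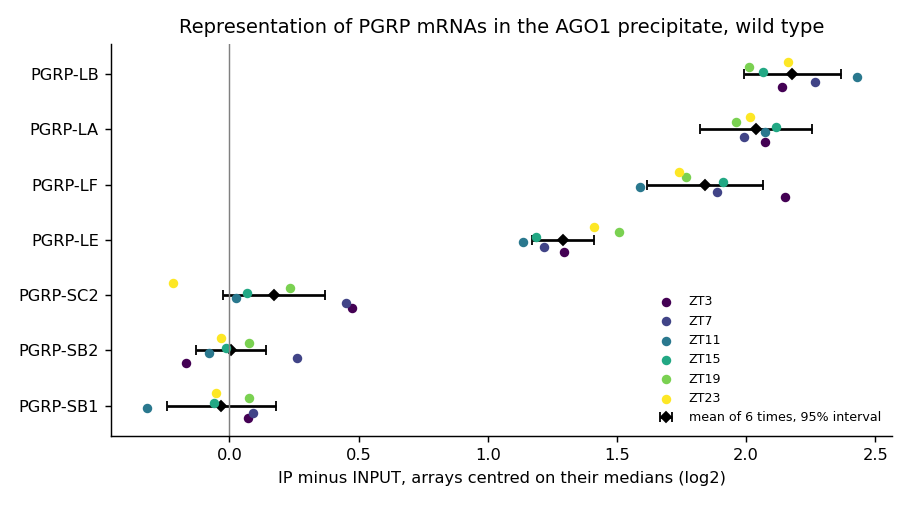
IP minus INPUT on the log2 scale (x axis, arrays centred on their medians) for the 7 measured PGRP genes in wild-type heads. Coloured points are the 6 times, diamonds the mean over times and bars its 95% interval. PGRP-LB, PGRP-LA, PGRP-LF and PGRP-LE lie above 1 at every time, and PGRP-SC2 and PGRP-SB1 lie around 0, as does PGRP-SB2, whose IP levels were below the filter.

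The plot of IP minus INPUT by gene shows how steady the values were over the day. PGRP-LB was at 2.14, 2.27, 2.43, 2.07, 2.01 and 2.16 at ZT3, 7, 11, 15, 19 and 23, each past the test at its own time (largest adjusted p = 1.45e-05), where 14.5% to 17.3% of all probe sets were called higher at a single time. Centred IP values of PGRP-LB, PGRP-LA, PGRP-LE and PGRP-LF were above the INPUT values of the same time without overlap at all 6 times. This held for 18.4% of all probe sets, and the reverse for 14.7%. PGRP-SC2 ranged from 0.48 at ZT3 to -0.22 at ZT23, and PGRP-SB1 from 0.09 at ZT7 to -0.32 at ZT11, with no time past the test for either.

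PGRP-LB was then set against each other gene directly, as a difference within each array, which any offset common to an array leaves untouched. PGRP-LB exceeded PGRP-SC2 in IP minus INPUT by 2.01 on the log2 scale (SE 0.13, 95% interval 1.74 to 2.27, adjusted p = 2.63e-12). It exceeded PGRP-SB1 by 2.21 (SE 0.10, 95% interval 1.99 to 2.43, adjusted p = 2.65e-14). These differences are 4.02-fold and 4.63-fold. They are near what an average probe set showed against PGRP-LB, a median of 2.17, and 98.3% of 15516 probe sets were significantly below PGRP-LB, with 0.554% above it.

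Against the other PGRP genes the differences ran from none detected to large. PGRP-LB minus PGRP-LA was 0.14 (SE 0.12, 95% interval -0.10 to 0.38, adjusted p = 0.242), which leaves a difference of up to 0.38 undetected. PGRP-LB exceeded PGRP-LF by 0.34 (SE 0.12, 95% interval 0.09 to 0.59, adjusted p = 0.0112) and PGRP-LE by 0.89 (SE 0.10, adjusted p = 3.53e-08). Since each of these rows holds the values of PGRP-LB, the moderated variances of limma are not independent between rows. With ordinary variances, chosen after seeing the data, the adjusted p was 1.73e-08 for PGRP-SC2 and 3.55e-10 for PGRP-SB1.

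Of 22 listed Imd pathway genes 20 were measured, of which 5 were called higher with AGO1, 8 lower and 7 neither, where 29.7% of all probe sets were called higher and 29.6% lower. Their median was -0.04, against 0.01 for all probe sets. The largest value was that of pirk, which restrains Imd signalling at the receptor PGRP-LC, at 2.39 (SE 0.09, adjusted p = 5.4e-13), a 5.23-fold higher representation. Rel, which encodes Relish, was lower at -1.04 (SE 0.08, adjusted p = 4.61e-09). Also lower were sick, at -1.01 (SE 0.10, adjusted p = 1.5e-07), and Uev1A, a cofactor of ubiquitin conjugation, at -0.98 (SE 0.08, adjusted p = 6.26e-09). For sick, 1 of 7 probe sets, that with the highest mean, stood for the gene.

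Of 21 listed Toll pathway genes 19 were measured, of which 8 were called higher, 7 lower and 4 neither, with a median of 0.10. Traf6, an adaptor of immune signalling, was at 1.21 (SE 0.10, adjusted p = 2.25e-08) and the receptor gene Tl, from 1 of its 2 probe sets, at 0.76 (SE 0.11, adjusted p = 1.35e-05). The adaptor gene wek was at 0.70 (SE 0.07, adjusted p = 1.1e-07), and spz, which encodes the ligand of Toll, at 0.67 (SE 0.11, adjusted p = 4.65e-05). Of 22 listed immune effector genes 12 were measured, with 0 called higher, 4 lower and 8 neither, and a median of -0.18. The 4 lower ones were Drsl5 at -0.88 (SE 0.14, adjusted p = 3.6e-05), the antifungal peptide gene Drs at -0.78 (SE 0.21, adjusted p = 0.00362), AttD at -0.70 (SE 0.25, adjusted p = 0.0249) and Drsl4 at -0.63 (SE 0.14, adjusted p = 0.000666). The shares are to be read against the 29.7% and 29.6% of all probe sets given above, and no list was tested as a whole.

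**Figure D2:**
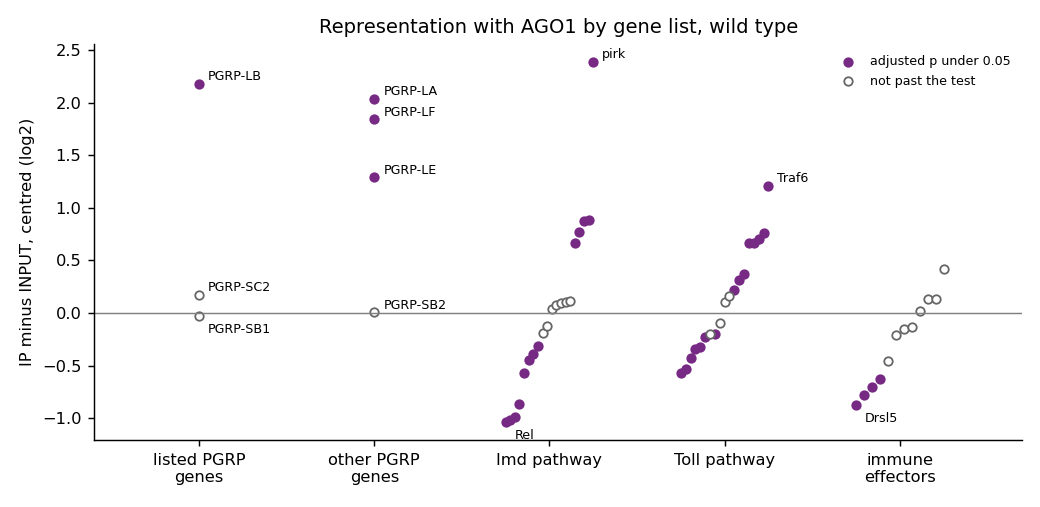
IP minus INPUT (y axis, log2, arrays centred on their medians) in wild-type heads for each measured gene of the lists on the x axis. Filled points passed the test at an adjusted p of 0.05 and open points did not. PGRP-LB at 2.18 lies beside PGRP-LA at 2.04 and below pirk at 2.39, while the 12 effectors reach no higher than 0.42 and none of them is called higher.

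As the plot by gene list shows, pirk, PGRP-LB, PGRP-LA, PGRP-LF and PGRP-LE stood above every Toll pathway gene and effector measured. They are named here for their high values. The highest effector value was 0.42, for CecB, a cecropin gene, which did not pass the test (SE 0.18, adjusted p = 0.0589) and is named after its value was seen.

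Deposited levels of PGRP-LB were higher by day than by night in both fractions, although the rhythm test below called PGRP-LB in IP alone. In IP its deposited log2 levels were 8.72 and 9.10 at ZT3, 8.95 and 8.46 at ZT7, 9.22 and 9.30 at ZT11, 8.26 and 8.11 at ZT15, 8.06 and 8.09 at ZT19, and 8.40 and 7.94 at ZT23. In INPUT they were 8.10 at ZT3, 7.81 and 7.72 at ZT7, 8.05 and 8.20 at ZT11, 7.44 and 7.50 at ZT15, 7.46 and 7.30 at ZT19, and 7.24 and 7.35 at ZT23. On this deposited scale the 6 IP arrays of the light phase were all above the 6 of the dark phase, and so were the 5 light-phase INPUT arrays above the 6 dark-phase ones. On centred arrays the IP phases overlapped, with ZT7 replicate 2 at 3.57 and ZT23 replicate 1 at 3.61, while the INPUT phases did not. ZT11 was the highest time in both fractions. In IP it lay above the next time, ZT3, without overlap, while in INPUT the single ZT3 array lay within the range of ZT11. Among the dark-phase times in IP, the 2 arrays of ZT23 spanned those of ZT15 and ZT19.

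The light-phase and dark-phase means of PGRP-LB were 8.96 ± 0.32 and 8.14 ± 0.16 in IP (SD, n = 6 each). In INPUT they were 7.98 ± 0.20 (SD, n = 5) and 7.38 ± 0.10 (SD, n = 6). On the deposited scale light-phase arrays lay above dark-phase arrays without overlap for 0.303% of probe sets in IP, 0.206% in INPUT and 0.0451% in both, which is 7 probe sets with PGRP-LB among them. No other PGRP gene showed this in either fraction. This split was chosen after seeing the values, so no p is given for it, and for PGRP-LB in IP it does not hold on centred arrays.

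The fit of a 24 h harmonic gave PGRP-LB a peak-to-trough difference of 1.05 on the log2 scale in IP (SE 0.22, 2.07-fold), with a peak at ZT7.78 and an adjusted p of 0.0486 (limma F test). The call covered 0.928% of all probe sets in IP. It rested on the settings: the adjusted p was 0.0751 on centred arrays and 0.235 from IP arrays alone, and it was above 0.05 in 18 of 23 fits that left out 1 array, with a difference of 0.94 to 1.31. In INPUT the difference was 0.72 (SE 0.22), with a peak at ZT8.20 and an adjusted p of 0.514, where 0.593% of probe sets were called. The unadjusted p there was 0.0136.

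The rhythm of IP was not shown to differ from that of INPUT. The change over the day in IP minus INPUT of PGRP-LB had a peak-to-trough size of 0.35 (SE 0.32, adjusted p = 1), and 0 of 15517 probe sets were called in this comparison, with 174 at an unadjusted p under 0.05. The summed level of the 7 midgut markers (log2 of their sum, on centred arrays) had light-phase and dark-phase medians of 7.39 and 7.47 in IP and of 7.32 and 7.30 in INPUT. For glia markers these medians were 6.78 and 6.54 in IP and 5.83 and 5.82 in INPUT, for photoreceptor markers 9.02 and 8.91 in IP and 9.10 and 9.18 in INPUT, and for neuron markers 6.39 and 6.51 in IP and 6.28 and 6.51 in INPUT. For fat body markers they were 10.26 and 10.23 in IP and 9.66 and 9.70 in INPUT, and for hemocyte markers 5.04 and 4.92 in IP and 4.90 and 4.75 in INPUT. Of the photoreceptor markers 1 of 5 was called rhythmic in IP, and 0 markers of the other lists in either fraction. Among all probe sets 0.928% were called in IP and 0.593% in INPUT. The part of these cell types in the levels of PGRP-LB was not tested.

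**Figure D3:**
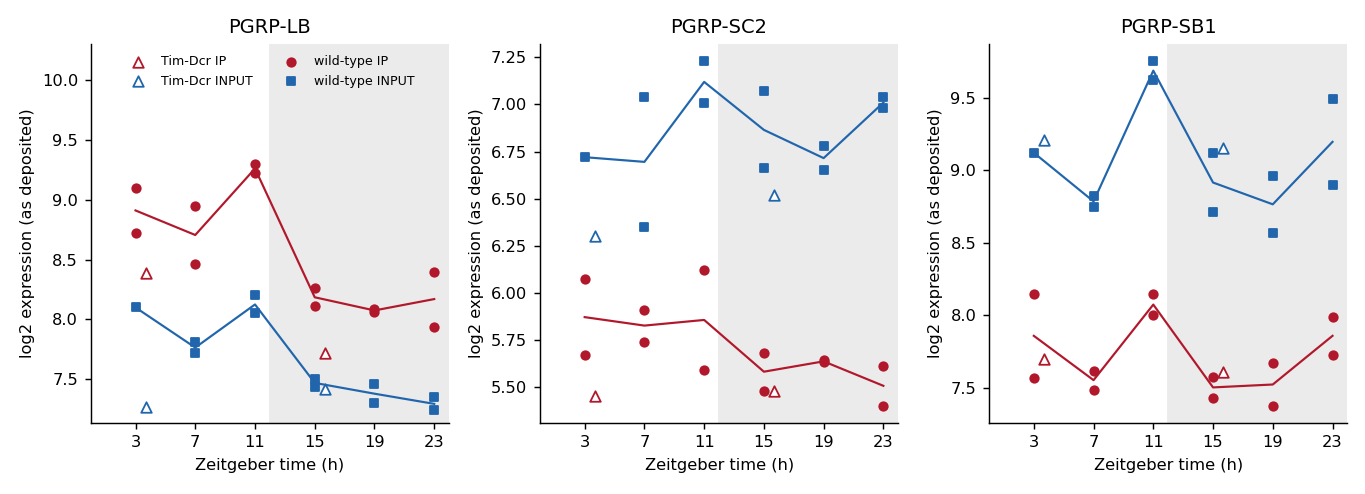
Deposited log2 levels (y axis) of PGRP-LB, PGRP-SC2 and PGRP-SB1 by Zeitgeber time in hours (x axis). Each point is 1 array, lines join the wild-type means of each fraction, triangles are Tim-Dcr arrays drawn slightly to the right of their time, and shading marks the dark phase. PGRP-LB is higher in IP than in INPUT and drops after ZT11 in both, while PGRP-SC2 and PGRP-SB1 are higher in INPUT on this scale, which carries the general offset.

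PGRP-SC2 and PGRP-SB1 had no detected rhythm, as the plot of levels by time shows. PGRP-SC2 had deposited log2 levels of 5.40 to 6.12 in IP and 6.35 to 7.23 in INPUT, with light-phase and dark-phase medians of 5.82 and 5.62 in IP and of 7.01 and 6.88 in INPUT. Its peak-to-trough difference was 0.34 in IP (SE 0.19, adjusted p = 0.998) and 0.12 in INPUT (SE 0.20, adjusted p = 1). Light and dark arrays overlapped in both fractions. At ZT7 its 2 INPUT replicates, 6.35 and 7.04, spanned most of the range of that fraction.

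PGRP-SB1 was highest at ZT11 in both fractions, at 8.15 and 8.0 in IP and 9.62 and 9.75 in INPUT, above the time of the next highest mean without overlap. That next time was ZT23, at 7.99 and 7.73 in IP and at 8.90 and 9.49 in INPUT. In IP 1 of the ZT3 arrays, at 8.15, was as high as those of ZT11. The peak-to-trough difference was 0.22 in IP (SE 0.27, adjusted p = 0.998) and 0.30 in INPUT (SE 0.27, adjusted p = 1). Of the 4 other PGRP genes none was called rhythmic in either fraction, and the same count of 0 was found among the 20 Imd pathway genes, the 19 Toll pathway genes and the 12 effectors in each fraction. Only 0.928% of all probe sets were called rhythmic in IP and 0.593% in INPUT, so counts of 0 are near that share.

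After subtracting fraction means, the levels of PGRP-SB1 followed those of PGRP-LB over the 23 wild-type arrays with a Pearson correlation of 0.56, PGRP-LF with 0.44, PGRP-SC2 with 0.35 and PGRP-LA with -0.18. The 5 genes most like PGRP-LB by this measure were PIP82 (0.85), CG13856 (0.84), CG12910 (0.82), Buffy (0.81) and Npc2a (0.81). All of these share their arrays and their sampling times, and the correlations are descriptions without a test. Their centred IP minus INPUT had a wide range, at -1.07 for PIP82, 1.33 for CG13856, 1.06 for CG12910, 0.14 for Buffy and 0.75 for Npc2a, against 2.18 for PGRP-LB. In IP, CG13856 had a peak at ZT7.96 with a peak-to-trough difference of 1.39, Buffy, a Bcl-2 family member, at ZT8.32 with 1.14, and CG12910 at ZT9.49 with 1.8. PIP82 had its peak at ZT8.05 and Npc2a at ZT8.40, each with a difference of 0.59, beside ZT7.78 and 1.05 for PGRP-LB. CG13856, CG12910 and Buffy were called rhythmic in IP, while PIP82 and Npc2a were not (limma F test, adjusted p = 0.057 and 0.116). The genes were picked for their likeness to PGRP-LB on these arrays, so near peak times follow from that choice.

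In Tim-Dcr heads PGRP-LB had lower deposited levels in IP, and its centred IP levels were above its INPUT levels at both times there too. In IP it was at 8.39 at ZT3 and 7.72 at ZT15 in Tim-Dcr heads, against 8.72 and 9.10 at ZT3 and 8.26 and 8.11 at ZT15 in wild-type heads. On this deposited scale both Tim-Dcr arrays were below both wild-type arrays of their time. At ZT15 this did not hold on centred arrays. The share of all probe sets with this order on the deposited scale was not counted. Tim-Dcr minus wild type, as 1 offset over both times, was -0.49 (SE 0.17, adjusted p = 0.0291), 1.40-fold lower, where 27% of all probe sets were called higher and 17% lower. Its adjusted p was above 0.05 in 4 of 6 fits that left out 1 array, with an offset of -0.57 to -0.40. In INPUT PGRP-LB was at 7.27 at ZT3 and 7.42 at ZT15 in Tim-Dcr heads, against 8.10 at ZT3 and 7.44 and 7.50 at ZT15 in wild-type heads. The INPUT offset was -0.38 (SE 0.18, adjusted p = 0.0924) and did not pass, where 32.3% of probe sets were called higher and 17% lower.

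These offsets depended on the scale. Array medians were 4.34 to 4.54 in Tim-Dcr IP against 4.77 to 4.90 in wild-type IP, and 5.66 to 5.93 in Tim-Dcr INPUT against 6.11 to 6.19 in wild-type INPUT. On centred arrays the PGRP-LB offsets were -0.14 in IP (adjusted p = 0.556) and -0.03 in INPUT (adjusted p = 0.921), and neither passed. The centred IP level of PGRP-LB at ZT15 was 3.38 in Tim-Dcr heads, between 3.29 and 3.48 of the wild-type arrays. On that scale 59.5% of probe sets were called higher and 11.9% lower in IP, and 63.9% higher and 13.2% lower in INPUT, with median offsets of 0.52 in IP and 0.59 in INPUT. On the deposited scale that median was 0.17 in IP and 0.23 in INPUT.

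The offsets of PGRP-LB were not shown to differ between the times. The INPUT offset was -0.83 at ZT3, from 1 Tim-Dcr and 1 wild-type array, and -0.05 (SE 0.22, adjusted p = 0.87) at ZT15. On centred arrays the INPUT levels were 1.34 in Tim-Dcr against 1.99 in wild-type heads at ZT3, and 1.76 against 1.25 and 1.38 at ZT15, so the sign differed between the times. The difference between these offsets, -0.78 (SE 0.34), had an unadjusted p of 0.0344 and an adjusted p of 0.544, where 1.2% of probe sets were called higher and 0.0126% lower. This test was chosen after seeing the data. Among single INPUT arrays, ZT3 was below ZT15 in Tim-Dcr heads and above both ZT15 arrays in wild-type heads. In IP the offset was -0.52 (SE 0.22) at ZT3 and -0.46 (SE 0.22) at ZT15, a difference of -0.06 (SE 0.31, adjusted p = 0.964), where 1.94% of probe sets were called higher and 0.164% lower.

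The representation of PGRP-LB with AGO1 was not shown to differ between genotypes. Centred IP minus INPUT was 2.51 in Tim-Dcr heads against 2.14 in wild-type heads at ZT3, and 1.62 against 2.07 at ZT15. The sign of the difference changed between times. Over both it was -0.12 (SE 0.31, 95% interval -0.77 to 0.54, adjusted p = 0.898), where 0.373% of probe sets were called higher and 0.6% lower. PGRP-SC2 was at 0.11 (SE 0.29, adjusted p = 0.895) and PGRP-SB1 at -0.21 (SE 0.31, adjusted p = 0.794). Each interval spans more than 1 log2 unit, so moderate differences were not detectable.

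PGRP-SC2 and PGRP-SB1 had no called offset in Tim-Dcr heads on the deposited scale. PGRP-SC2 was at 5.45 and 5.48 in Tim-Dcr IP at ZT3 and ZT15, against 5.67, 6.07, 5.68 and 5.48 in wild-type IP, with an offset of -0.26 (SE 0.19, adjusted p = 0.27). In INPUT its offset was -0.38 (SE 0.20, adjusted p = 0.123). PGRP-SB1 was at 7.70 at ZT3 and 7.61 at ZT15 in Tim-Dcr IP, against 7.57 and 8.15 at ZT3 and 7.43 and 7.58 at ZT15 in wild-type IP, with an offset of -0.02 (SE 0.19, adjusted p = 0.927). In INPUT, at 9.21 and 9.15 in Tim-Dcr heads, its offset was 0.17 (SE 0.20, adjusted p = 0.478). On centred arrays that INPUT offset of PGRP-SB1 was called higher, at 0.53 (SE 0.22, adjusted p = 0.0375), beside a median of 0.59 over all probe sets.

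Of the other PGRP genes, PGRP-LF and PGRP-LA were higher in Tim-Dcr INPUT, and PGRP-LE was lower in Tim-Dcr IP, on the deposited scale. On centred arrays all 4 were called higher in INPUT, PGRP-LF at 1.00, PGRP-LA at 0.92, PGRP-SB2 at 0.43 and PGRP-LE at 0.39, where 63.9% of all probe sets were. In IP PGRP-LA at 0.81 (adjusted p = 0.00196) and PGRP-SB2 at 0.56 (adjusted p = 0.00801) were called higher on centred arrays, where 59.5% of all probe sets were. PGRP-SB2 had deposited IP levels of 2.82 and 3.35 in Tim-Dcr heads, below the filter of 4 as in wild-type heads. Nothing is read from its call in IP. PGRP-LF was at 6.75 at ZT3 and 6.53 at ZT15 in Tim-Dcr INPUT, an offset of 0.64 (SE 0.23, adjusted p = 0.0265), and PGRP-LA at 9.56 and 9.52, an offset of 0.56 (SE 0.21, adjusted p = 0.0376). Each of these calls was lost in 4 of 5 fits that left out 1 array. PGRP-LE was at 7.70 and 8.01 in Tim-Dcr IP, an offset of -0.37 (SE 0.11, adjusted p = 0.0104), which on centred arrays was -0.02 and without the ZT3 Tim-Dcr array was -0.21 (adjusted p = 0.277). PGRP-LF had a Tim-Dcr difference in IP minus INPUT of -1.11 (SE 0.33, adjusted p = 0.0989), with 0.82 in Tim-Dcr heads against 2.15 in wild-type heads at ZT3 and 1.05 against 1.91 at ZT15. This did not pass the test, though both times had the same sign. It passed without the ZT15 Tim-Dcr IP array (-1.45), a fit with 1 Tim-Dcr array in IP, and also without the wild-type ZT15 IP replicate 1. In each of these fits more of all probe sets were called lower than in the main fit. What lay behind the gain for PGRP-LF was not tested.

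**Figure D4:**
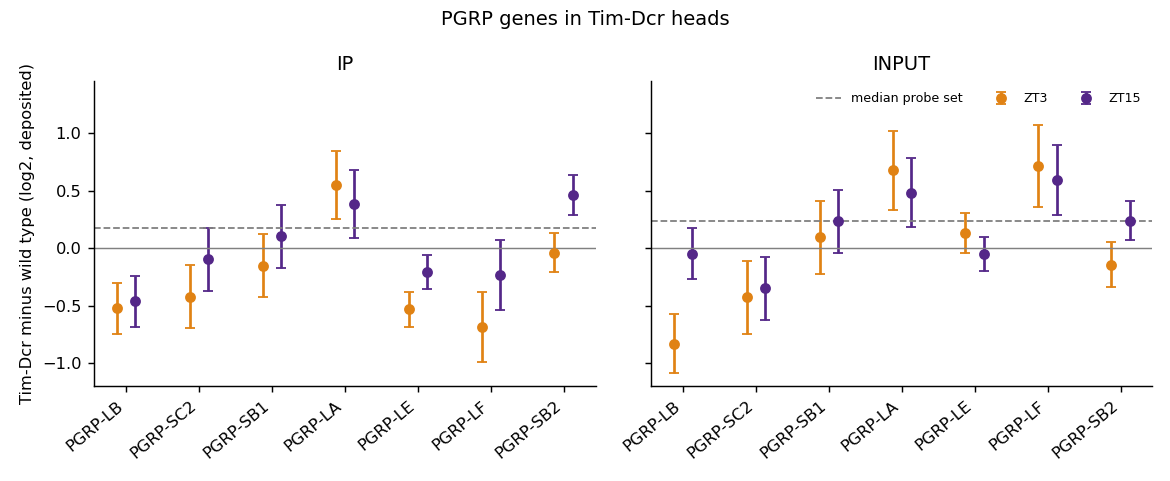
Tim-Dcr minus wild type in deposited log2 levels (y axis) for the 7 measured PGRP genes (x axis) in IP (left) and INPUT (right), at ZT3 and ZT15. Bars are standard errors of the fit and the dashed line is the median of all probe sets. PGRP-LB lies below the dashed line in both fractions, at -0.52 and -0.46 in IP and at -0.83 and -0.05 in INPUT.

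The plot of Tim-Dcr offsets shows the 7 genes beside the median of all probe sets. All 7 of 7 measured midgut markers were lower in Tim-Dcr heads, with a median offset of -3.65 in IP and -3.29 in INPUT, and their summed level (log2, centred arrays) was 2.90 to 3.63 in Tim-Dcr IP against 6.12 to 8.01 in wild-type IP, and 2.53 to 3.45 in Tim-Dcr INPUT against 7.01 to 7.82 in wild-type INPUT. PGRP-LB and PGRP-SC2 are known to act in the gut as well as elsewhere, and the part of gut tissue in the PGRP-LB offset was not tested. Hemocyte markers were called higher for 5 of 8 in IP and 7 of 8 in INPUT, fat body markers for 5 of 9 (with 1 lower) and 6 of 9, glia markers for 2 of 5 and 4 of 5, and neuron markers for 3 of 5 in each. Of 5 photoreceptor markers 3 were higher and 1 lower in IP, with 0 called in INPUT. These counts stand beside the 27% of all probe sets called higher in IP and 32.3% in INPUT, with 17% called lower in each fraction. On centred arrays the counts called higher were 6 of 8 hemocyte, 8 of 9 fat body, 4 of 5 glia, 5 of 5 neuron and 3 of 5 photoreceptor markers in IP. In INPUT they were 8 of 8, 8 of 9, 5 of 5, 3 of 5 and 2 of 5, and the 7 midgut markers were called lower in both fractions on this scale too. On this scale 59.5% of all probe sets were called higher and 11.9% lower in IP, and 63.9% and 13.2% in INPUT.

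Of 12 measured effector genes, 3 were higher and 4 lower in Tim-Dcr IP, and 3 higher and 5 lower in Tim-Dcr INPUT. Of all probe sets 27% were called higher and 17% lower in IP, and 32.3% and 17% in INPUT. Drs was at -2.73 in IP (adjusted p = 0.000126) and -2.31 in INPUT (adjusted p = 0.000706). Drsl4 and Drsl5 ran the other way, at 1.31 and 1.5 in IP and at 2.04 and 2.01 in INPUT. AttD was at -1.13 in IP (adjusted p = 0.0792) and -1.60 in INPUT (adjusted p = 0.0219). Of the 20 Imd pathway genes 3 were higher and 2 lower in IP, and 5 higher and 5 lower in INPUT. On centred arrays these were 8 higher and 0 lower in IP, and 10 higher and 0 lower in INPUT, where 59.5% and 63.9% of all probe sets were called higher.

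Names and neighbours limit what a probe set can be ascribed to. PGRP-LB overlaps CG17230 in the RefSeq gene table of Release 6 plus ISO1 MT, and its probe set name carries the suffix that Affymetrix gives to probes shared by several transcripts, so signal of an overlapping transcript cannot be told apart here. In the same table PGRP-LF overlaps UGP, and whether its probe set also reads UGP was not tested. PGRP-LA, PGRP-LC and PGRP-LF are neighbours there, as are PGRP-SB1 and PGRP-SB2, and PGRP-SC2 and PGRP-SC1b.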

How the data were processed

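The authors deposited 1 log2 level for each probe set and array. GCRMA is named in the submitters' processing notes, with its version and the arrays it was run on together not given in the sources used here. Labelling used an Affymetrix IVT kit, per the labels' protocols. The table held 18952 probe sets, of which 183 controls were left out. Of the rest, 13647 had 1 symbol, 402 several and 4720 none, and 13544 of those with 1 symbol matched the RefSeq table. A description of 1 wild-type IP array (ZT3, replicate 1) names another time than its title and time point, which were used. No 2 arrays held the same values, and the most alike correlated at 0.9958.

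Tests used limma 3.58.1 in R 4.3.3 with eBayes and Benjamini-Hochberg adjustment over all probe sets at 0.05, and were tested on simulated data. Probe sets above 4 (log2) in at least 3 arrays were kept, 15517 for wild-type tests and 15835 with Tim-Dcr. IP minus INPUT was the mean over 6 times from 12 fraction-by-time means (11 residual degrees of freedom), on arrays centred on the median of all 18769 probe sets. PGRP-LB minus each other probe set was fitted the same way. Rhythm was an F test on a 24 h harmonic within each fraction (17 residual degrees of freedom), and Tim-Dcr was compared in each fraction with wild type at the same times as 1 common difference (13 residual degrees of freedom). The spread of Tim-Dcr comes from wild-type replicates and from its 2 times. Alternatives covered centring, quantile normalization, filters, moderation, the harmonic, single times, the replicate block and leaving out each array. Figures were drawn with matplotlib 3.10.9 and pandas 2.3.3 in Python 3.11.15.

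The members and lists were chosen with earlier results of these data known. All PGRP genes were named, with up to 4 genes of largest absolute IP minus INPUT per list, up to 2 markers of highest level, and the 5 genes most correlated with PGRP-LB. Same-numbered IP and INPUT arrays deviated together from their means (correlations of 0.417, 0.394, 0.664, 0.429 and 0.381 at ZT7 to ZT23, against a median of 0.075 and a highest value of 0.405 between times). Arrays with the same number in their titles were therefore paired in the replicate block, an alternative. No fit given above has this block.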

Additional observations from a re-analysis of the deposited data

How the results depend on the processing

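The over-representation of PGRP-LB and its excess over PGRP-SC2 and PGRP-SB1 kept direction and call under every alternative run, at 0.86 to 2.43, 1.96 to 2.01 and 2.21 to 2.24. Without 1 array they were 2.13 to 2.23, 1.94 to 2.07 and 2.16 to 2.26. With 11 pairs as a replicate block they were 2.15, 2.01 and 2.23, the rhythm of PGRP-LB was 1.05 in IP (adjusted p = 0.0296), 0.73 in INPUT and 0.29 for their difference, and the pairing changed no call of PGRP-LB, PGRP-SC2 or PGRP-SB1.

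IP minus INPUT of genes near 0 changed sign. On deposited values it was -1.14 for PGRP-SC2, -1.35 for PGRP-SB1 and -1.31 for PGRP-SB2, all past the test, and -0.02 for PGRP-LE. PGRP-SC2 was -0.22 at ZT23 alone, and 0.11 to 0.23 without 1 array, passing without the ZT7 INPUT replicate 2 (0.23, adjusted p = 0.0334). PGRP-SB1 was 0.07, 0.09 and 0.08 at ZT3, ZT7 and ZT19 alone, and -0.08 to 0.02 without 1 array. PGRP-SB2 was -0.06 after quantile normalization, -0.05 when centred on the probe sets kept, -0.17, -0.08, -0.01 and -0.03 at ZT3, ZT11, ZT15 and ZT23 alone, and -0.02 to 0.04 without 1 array.

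The rhythm of PGRP-LB in IP stayed at 1.05 but lost its call on centred arrays (adjusted p = 0.0751), with no filter (0.054) and from IP arrays alone (0.235). It was 0.94 to 1.31 without 1 array, and the call was kept only without the ZT3 replicate 1, ZT7 replicate 2 or ZT11 replicate 2 of INPUT, or the ZT3 or ZT7 replicate 2 of IP.

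The Tim-Dcr offset of PGRP-LB in IP lost its call at -0.14 on centred arrays, -0.17 when centred on the probe sets kept, -0.52 at ZT3 alone and -0.46 at ZT15 alone, and was -0.57 to -0.40 without 1 array, not called without either Tim-Dcr array, the wild-type ZT3 replicate 2 or the wild-type ZT15 replicate 1. In INPUT it passed at ZT3 alone (-0.83, 1 array against 1) and was -0.83 to -0.05 without 1 array. The Tim-Dcr difference in IP minus INPUT of PGRP-LB was 0.01 when centred on the probe sets kept, 0.37 at ZT3 alone and -0.59 to 0.51 without 1 array. Other offsets that changed sign without being called were 0.09 and 0.06 for PGRP-SC2 in IP on the 2 centred scales, and 0.32, 0.30 and, at ZT15 alone, 0.10 for PGRP-SB1 in IP. At 1 time alone they were -0.05 for PGRP-LE in INPUT, and -0.14 in INPUT and -0.04 in IP for PGRP-SB2. Calls gained on centred arrays were PGRP-SB1, PGRP-LE and PGRP-SB2 in INPUT (0.53, 0.39 and 0.43) and PGRP-LA and PGRP-SB2 in IP (0.81 and 0.56). Since the deposited IP levels of PGRP-SB2 were below the filter, nothing is read from its values in IP. The Tim-Dcr difference of PGRP-LA was 0.02 when centred on the probe sets kept. Without 1 array the ranges were -0.05 to 0.13 (PGRP-LE, INPUT), -0.14 to 0.24 (PGRP-SB2, INPUT), -0.15 to 0.12 (PGRP-SB1, IP), -0.04 to 0.46 (PGRP-SB2, IP), and, for the Tim-Dcr difference, -0.16 to 0.38 (PGRP-SC2), -0.44 to 0.05 (PGRP-SB1), -0.30 to 0.09 (PGRP-LA) and -0.23 to 0.52 (PGRP-SB2). Where Tim-Dcr kept 1 array in a fraction, it was assumed to vary like wild type.

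Counts over all probe sets moved by more than 1.5 times as follows. Probe sets called higher with AGO1 numbered 4601, against 563 on deposited values and 2252 to 2684 at single times, and those called lower 4598, against 14443 and 1730 to 2092. Rhythm calls numbered 144 in IP, against 75 for any difference between times and 56 from IP arrays alone, and 92 in INPUT, against 46 for any difference, 46 without the ZT23 replicate 1 and 56 without the ZT11 replicate 1 of INPUT. For the rhythm difference 0 became 2 with contrasts of time means. Tim-Dcr calls higher numbered 4270 in IP, against 9419 and 9380 on the centred scales, 1405 at ZT3 alone and 1385 without the ZT15 Tim-Dcr array. In INPUT they numbered 5118, against 10116, 8336, 2004 and 1947. Calls lower in IP numbered 2691, against 1742 at ZT3 alone and 1640 without the ZT15 Tim-Dcr array. Calls of a Tim-Dcr difference numbered 59 higher and 95 lower, against 125 and 307 on deposited values, 105 and 61 when centred on the probe sets kept, 6 and 6 at ZT3 alone, 3 and 0 at ZT15 alone, and 6 to 282 and 0 to 775 without 1 array.

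The cause of these changes was not tested. No PGRP gene had another probe set of its own, so that alternative could not be run. Centring on the probe sets kept and ordinary variances were chosen after seeing the data.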
